A study of Mus musculus with 2 samples.

Results

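The genes described here were 9 genes of dendritic cells, the leukocytes that take up antigen and show it to T cells. They were taken by name from the platform annotation, every probe set whose symbol was Flt3, Zbtb46, Batf3, Id2, Ccr7, Cd209a, Clec9a, Siglech or Tcf4, and the choice of probe sets used no intensity. The names themselves were chosen with earlier results of these data known. Of these 9, 8 were read by 18 probe sets, among 18193 genes in all, and 7 lay above the floor, an intensity of 78.4 set at the median over the probe sets of the 2 arrays together, as did 11920 genes in all. A gene or probe set counted as above the floor where the higher of its 2 values reached it. Clec9a had no probe set under its own symbol and is not analysed here, and no probe set was shared between a member and another gene.

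The series held 2 arrays of C57BL/6 mouse bone marrow cells, transfected either with silncMDSC, which targets a long non-coding RNA (lnc-C/EBPβ in the study's naming), or with a control siRNA. GM-CSF and IL-6 were given to both cultures for 4 days, and these cytokines turn marrow cells into myeloid-derived suppressor cells (MDSCs). Total RNA was read on an Affymetrix mouse expression array. With 1 array per siRNA there is no replicate error and no test, so each difference describes these 2 arrays and these 2 cultures. No sort of the cells before RNA extraction is named in the labels. The targeted RNA itself is not analysed here, so the knockdown was not checked.

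Dendritic cells arise from marrow progenitors that carry the receptor FLT3. They divide into conventional cells, whose cross-presenting branch needs ID2 and BATF3, and plasmacytoid cells, which need TCF4. ID2 works by pairing with E proteins such as TCF4 and keeping them from the short DNA sequence they bind, the E-box, so that these factors stand on opposite sides of the same choice. GM-CSF, which both cultures received, can also turn monocytes into cells with dendritic features.

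The upstream sequences of 4 genes are shown because E proteins and C/EBP factors act through such stretches: Batf3, the gene with a sequence here that lay farthest above control; Flt3, next to it; Id2, which was nearly level; and Siglech, the plasmacytoid gene below control. Each is the 250 bases before the RefSeq start of the gene (GRCm38.p6), written 5′ to 3′ on the strand of the gene, namely chr1:191098164-191098413 (plus strand) for Batf3, chr5:147400490-147400739 (minus) for Flt3, chr12:25096093-25096342 (minus) for Id2 and chr7:55767934-55768183 (plus) for Siglech. Capitals mark matches on either strand to an E-box (CANNTG), a C/EBP motif (TTGCNNAA), a PU.1 motif (GAGGAAG) and an AP-1 motif (TGANTCA), in which N is any base, and no 2 matches overlap in these 4 sequences.
Batf3: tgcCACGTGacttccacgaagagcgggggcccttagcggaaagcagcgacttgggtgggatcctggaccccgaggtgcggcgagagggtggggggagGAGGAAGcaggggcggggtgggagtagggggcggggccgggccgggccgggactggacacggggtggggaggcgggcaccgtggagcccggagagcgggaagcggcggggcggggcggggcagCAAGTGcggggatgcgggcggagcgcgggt
Flt3: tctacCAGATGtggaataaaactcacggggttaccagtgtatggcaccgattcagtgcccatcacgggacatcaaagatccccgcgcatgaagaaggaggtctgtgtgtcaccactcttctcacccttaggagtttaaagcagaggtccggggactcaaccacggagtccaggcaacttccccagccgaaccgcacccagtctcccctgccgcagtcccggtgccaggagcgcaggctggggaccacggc
Id2: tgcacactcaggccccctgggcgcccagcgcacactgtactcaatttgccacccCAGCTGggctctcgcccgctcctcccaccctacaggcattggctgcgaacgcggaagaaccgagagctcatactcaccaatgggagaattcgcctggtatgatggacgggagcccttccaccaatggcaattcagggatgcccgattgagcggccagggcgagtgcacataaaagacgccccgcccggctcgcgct
Siglech: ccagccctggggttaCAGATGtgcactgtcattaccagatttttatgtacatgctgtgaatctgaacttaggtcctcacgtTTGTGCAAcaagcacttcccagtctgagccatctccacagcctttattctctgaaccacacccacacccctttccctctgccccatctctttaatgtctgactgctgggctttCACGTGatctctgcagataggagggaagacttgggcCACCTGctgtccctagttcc

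An E-box was found 2 times before Batf3, 1 time each before Flt3 and Id2 and 3 times before Siglech, and 66.2% of all 32817 such stretches held at least 1. The PU.1 motif was found before Batf3 (10.6% of all stretches) and the C/EBP motif before Siglech (9.57%), while an AP-1 match (6.75%) was found in none of the 4 shown. Of the stretches not shown, that of Zbtb46 held 5 E-boxes and 1 AP-1 match, that of Cd209a 2 E-boxes and that of Clec9a 1. These matches describe letters and say nothing about binding in the cultures. Of the 9 genes, 7 had a sequence in the RefSeq table.

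Batf3 and Ccr7 were higher with silncMDSC, Flt3 somewhat higher, and Zbtb46, Id2, Cd209a and Tcf4 close to control. Of the 7 genes past the floor, 2 (Batf3 and Ccr7) stood 1.5-fold or more above control, against a share of 0.948% among all 11920, and 0 were lower by as much, against 1.42%. Their median difference, silncMDSC minus control in log2(intensity + 1), was 0.14, beside -0.002 for all genes above the floor, whose robust SD (scaled median absolute deviation) was 0.18. By probe set, 12 of the 15 above the floor were higher and 3 lower, 2 of them by 1.5-fold or more upward (0.776% of all such probe sets) and 0 by as much downward (1.38%). The gene shares of 0.948% up and 1.42% down hold for the gene lists below too. Members and lists were chosen with earlier results of these data known, so a count set beside its share is no test. In RNA of many cells together, more cells of a type and more message per cell cannot be told apart.

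**Figure D1:**
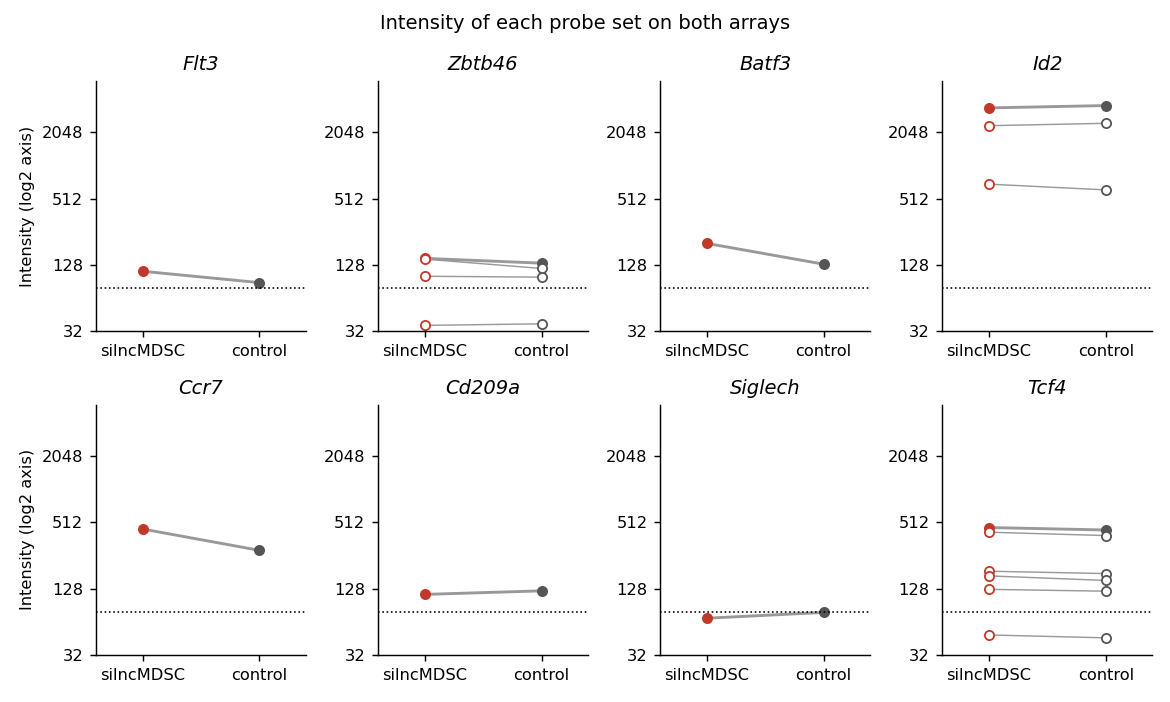
Intensity of each probe set (y axis, log2 scale) on the silncMDSC array (red) and the control array (grey), 1 array each, with a line joining the same probe set, filled points for the probe set read for the gene and a dotted line at the floor of 78.4. The lines of Batf3, Ccr7 and Flt3 are higher at silncMDSC, and levels of different probe sets cannot be compared with each other.

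Flt3 encodes the receptor tyrosine kinase that receives FLT3 ligand on dendritic cell progenitors. Its 1 probe set had an intensity of 112 with silncMDSC and 88.4 with control, a difference of 0.34 or 1.27-fold. That was 2.11 times the robust SD of the 1000 probe sets nearest in mean level (0.16), a spread made of probe noise together with true differences of other genes, which is no replicate error. Of all genes above the floor, 3.84% were at least as far above control. Both values lay close to the floor, where intensities are least certain.

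The signalling parts around the receptor differed less. Of 13 genes of the FLT3 and GM-CSF receptor axis, 12 were measured and past the floor, 0 of these were 1.5-fold apart, and their median was 0.05. The transcription factors Stat5b (0.28, though 0.05 by the second of its 2 probe sets) and Stat3 (0.16, from -0.06 to 0.22 over its 4 probe sets), which carry cytokine signals to the nucleus, and Stat5a (0.11) and Socs2, a feedback inhibitor (0.11, down to -0.05 over its 4 probe sets), lay farthest up. The GM-CSF receptor chains Csf2ra (-0.01, or 0.02 after loess and 0.01 after quantile normalization) and Csf2rb (-0.03) were nearly level, and so was Kit, the stem cell factor receptor of progenitors (-0.03).

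Batf3 encodes the AP-1 family factor that conventional dendritic cells of the cross-presenting type (cDC1) depend on. Its 1 probe set had 201 with silncMDSC and 130 with control, a difference of 0.62 or 1.54-fold, which was 3.73 times the robust SD of the probe sets nearest in level (0.17). Of the 11920 genes above the floor, 95 were at least as high, Batf3 included. The fold lay just past the 1.5-fold mark, and with a pseudocount of 16 in place of 1 the difference was 0.57, short of that mark.

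Among the relatives and partners of BATF3, Batf3 stood highest. All 8 genes of this group passed the floor, and Batf3 alone was 1.5-fold apart from control. Irf4, which encodes a partner factor needed for dendritic cells of the second conventional type (cDC2), had 402 with silncMDSC and 292 with control (0.46). Irf8, the partner needed for cDC1, had 616 with silncMDSC and 597 with control (0.04, and -0.04 by its second probe set). The other 2 BATF genes lay below control, Batf at -0.21 and Batf2 at -0.08, and Jun, Junb and Jund were within 0.10 of it.

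Clec9a, which encodes a receptor for the exposed actin of dead cells on cDC1, was not analysed here. Other genes listed for that type are given instead, and whether they follow Clec9a was not tested. Of 14 such genes, 10 passed the floor and their median was 0.09. Cadm1 passed it on the control array only (80.6, and 76.5 with silncMDSC). Of the 10, 1 was up by 1.5-fold or more (0.948% of all genes above the floor) and 0 down (1.42%). That gene was Itgae, the integrin CD103 of cDC1 and of some T cells, which had 353 with silncMDSC and 178 with control (0.98, and 0.82 by its second probe set). Nfil3, a factor upstream of cDC1 development, had 471 with silncMDSC and 357 with control (0.40), and Naaa, a lipid-cleaving lysosomal enzyme, 1083 with silncMDSC and 883 with control (0.30). Wdfy4, which serves cross-presentation, differed by 0.20. The defining chemokine receptor Xcr1 was below the floor on both arrays, with 15.0 with silncMDSC and 19.4 with control, as was Tlr3, with 51.1 with silncMDSC and 59.9 with control.

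**Figure D2:**
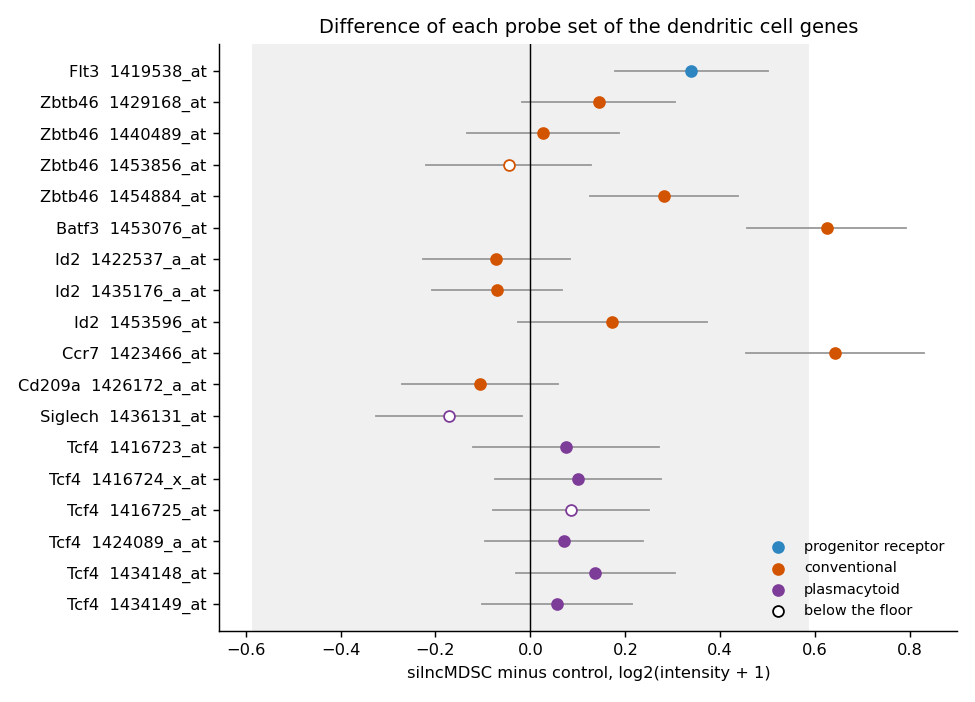
Difference of each of the 18 probe sets (x axis, silncMDSC minus control in log2(intensity + 1), 1 array each), coloured by subset, with open points for probe sets below the floor. Bars are 1 robust SD of the 1000 probe sets nearest in mean level to each side and not replicate error, the grey band is within 1.5-fold, and Batf3 (0.62) and Ccr7 (0.64) lie outside it.

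Zbtb46 encodes a zinc finger repressor that marks conventional dendritic cells and their committed precursors among myeloid cells. Its 4 probe sets did not move by the same amount. Probe set 1429168_at, read for the gene, had 147 with silncMDSC and 133 with control (0.14). Probe set 1454884_at had 145 with silncMDSC and 119 with control (0.28), and 1440489_at had 101 with silncMDSC and 99.2 with control (0.03). The fourth, 1453856_at, was below the floor with 36.2 with silncMDSC and 37.3 with control (-0.05). The 3 probe sets above the floor thus spanned 0.26, against a median span of 0.18 over the 1213 genes with 3 such probe sets.

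Id2, the inhibitor of E proteins on the conventional side, was nearly level and expressed on both arrays. Probe set 1435176_a_at had 3421 with silncMDSC and 3592 with control (-0.07), and 1422537_a_at had 2358 with silncMDSC and 2477 with control (-0.07). The third, 1453596_at, went the other way with 694 with silncMDSC and 615 with control (0.17), each within 1 robust SD of the probe sets nearest in level. The direction of Id2 therefore depended on the probe set, and the mean of all 3 was 0.01.

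Of the other inhibitors, Id1 stood apart. Id1, a close relative induced by BMP signals, had 789 with silncMDSC and 1401 with control, a difference of -0.83 or 1.77-fold by its 1 probe set past the floor. Id3 had 102 with silncMDSC and 110 with control (-0.10), and Id4 was below the floor on both arrays. Among the 6 genes of the ID and E protein family above the floor, 1 was higher and 5 were lower, with a median of -0.10. Id1 was the 1 gene of these at least 1.5-fold apart, against 1.42% of all genes above the floor lower by as much.

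Cd209a encodes a C-type lectin related to human DC-SIGN that is found on monocyte-derived dendritic cells and on part of cDC2. Its 1 probe set had 113 with silncMDSC and 122 with control (-0.11), within the robust SD of 0.16 of the probe sets nearest in level. Of the 7 genes of the CD209 family, which resemble each other in sequence so that a probe set may pick up a relative, 3 were above the floor and 0 were 1.5-fold apart. Cd209c had 130 with silncMDSC and 154 with control (-0.25), and Cd209f 91.2 with silncMDSC and 86.7 with control (0.07).

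Of 14 other cDC2 genes, 11 passed the floor with a median of 0.22. Among them 1 stood 1.5-fold or more above control (0.948% of all genes above the floor) and 0 below (1.42%). This was the lectin Mgl2, at 2219 with silncMDSC and 1090 with control (1.03). Cd7 (0.55), the lectin Clec10a (0.50), a relative of Mgl2, and Irf4 followed. Epcam was at -0.07 on the probe set read for the gene, but at 0.87, past 1.5-fold, by its second. Esam, an adhesion protein of splenic cDC2, was lower with 90.3 with silncMDSC and 112 with control (-0.31), and the defining surface receptor Sirpa was at -0.05 (down to -0.24 over its 3 probe sets).

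Ccr7 encodes the receptor that leads mature dendritic cells, and also naive T cells, along CCL19 and CCL21 to the lymph node. It was the farthest of the members. Its 1 probe set had 445 with silncMDSC and 285 with control, a difference of 0.64 or 1.56-fold, 3.43 times the robust SD of the probe sets nearest in level (0.19). Of the 11920 genes above the floor, 81 were at least as high, Ccr7 included.

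Of 17 genes of mature, migrating dendritic cells, 11 passed the floor with a median of 0.22. Among them 2 were 1.5-fold or more up (0.948% of all genes above the floor) and 0 down (1.42%). These were Ccl17, a T cell attractant, with 2015 with silncMDSC and 1268 with control (0.67), and Fscn1, the actin-bundling protein of dendrites, with 812 with silncMDSC and 535 with control (0.60, but down to 0.15 over its 3 probe sets above the floor). Ccl22, a further T cell attractant (0.57), and Cd83, a surface marker of maturity (0.52), came close. The co-stimulatory genes were less apart, with Cd86 at 0.22, Cd80 at 0.05 (down to -0.43 over its 3 probe sets) and Cd40 at -0.01, and Il15ra, which presents interleukin-15, was at -0.22 and Anxa3, a membrane-binding annexin, at -0.18. Il12b was below the floor on both arrays. This list shares genes with others. Relb (0.22) is also in the cDC2 list and gives the median of both, so the equal medians are 1 gene. Ccl17 and Ccl22 are also in the list of monocyte-derived dendritic cell genes.

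**Figure D3:**
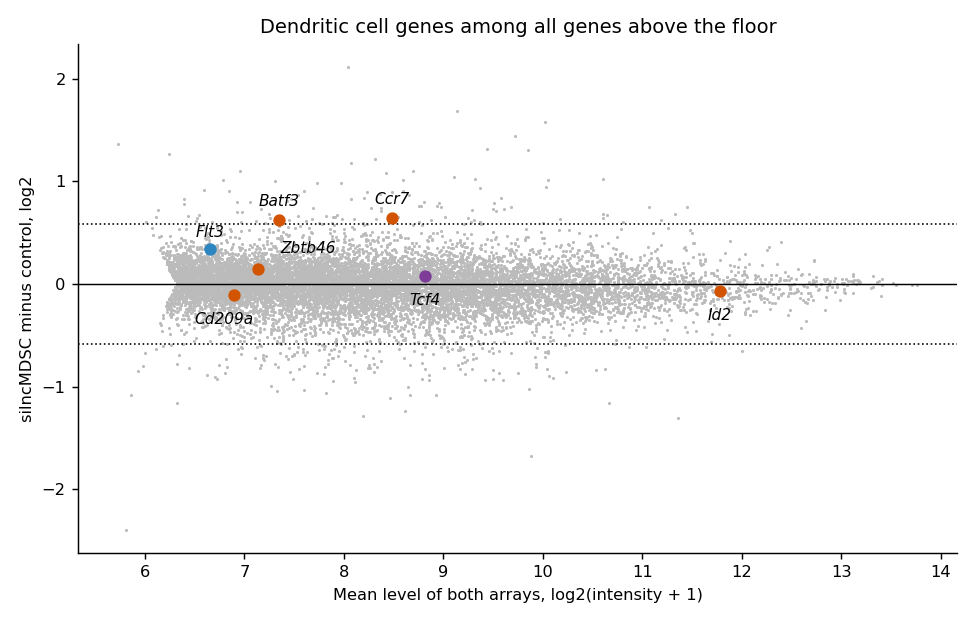
Grey points are the 11920 genes past the floor, placed by mean log2(intensity + 1) of the arrays (x axis) and by silncMDSC minus control (y axis, log2, 1 array each), and dotted lines mark 1.5-fold. The 7 members above the floor are named, with Batf3 and Ccr7 beyond the upper line and the others between the lines.

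On the plasmacytoid side, Tcf4 was slightly higher on all of its probe sets and Siglech lower and dim. Tcf4 encodes the E protein that sets and keeps the plasmacytoid fate. Its probe set 1416723_at had 460 with silncMDSC and 437 with control (0.07), and 1416724_x_at, which may cross-hybridise, had 417 with silncMDSC and 389 with control (0.10). The other 3 above the floor had 184, 167 and 126 with silncMDSC and 175, 152 and 121 with control, differences of 0.07, 0.14 and 0.06 for 1424089_a_at, 1434148_at and 1434149_at. The sixth, 1416725_at, was below the floor with 48.6 with silncMDSC and 45.7 with control (0.09).

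All 6 differences of Tcf4 were thus above 0 and each was smaller than 1 robust SD of the probe sets nearest in level. The 5 above the floor spanned 0.08, against a median span of 0.30 over the 158 genes with 5 such probe sets. Probe sets of 1 gene share the same RNA, so their closeness does not stand for replication. The other E proteins lay below control, with Tcf12 at 440 with silncMDSC and 554 with control (-0.33, up to -0.03 over its 4 probe sets above the floor) and Tcf3 at 165 with silncMDSC and 177 with control (-0.10).

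Siglech encodes the sialic acid-binding receptor Siglec-H, the usual surface marker of mouse plasmacytoid cells. Its 1 probe set had 69.0 with silncMDSC and 77.8 with control (-0.17), both below the floor. Of 21 further plasmacytoid genes, 16 were above the floor and 0 were 1.5-fold apart in either direction, with a median of 0.02. Ccr9, the gut-homing receptor, is among them at 0.10, but was at -0.93, past 1.5-fold, by its second probe set. Ptprs, a receptor phosphatase, was farthest up with 275 with silncMDSC and 214 with control (0.36), followed by the inhibitory receptor Lair1 (0.24), while Tlr7, the sensor of single-stranded RNA, had 134 with silncMDSC and 165 with control (-0.29) and the interferon regulator Irf7 differed by -0.19. Spib, a factor that works with TCF4 (0.06), Bcl11a (0.02) and Tlr9, the DNA sensor (0.12), were nearly level.

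Set side by side by subset, the 5 conventional genes above the floor had a median of 0.14, with 3 higher and 2 lower, and the 1 plasmacytoid gene above the floor, Tcf4, was at 0.07. With so few genes and 1 array per siRNA, no difference between the subsets was tested.

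**Figure D4:**
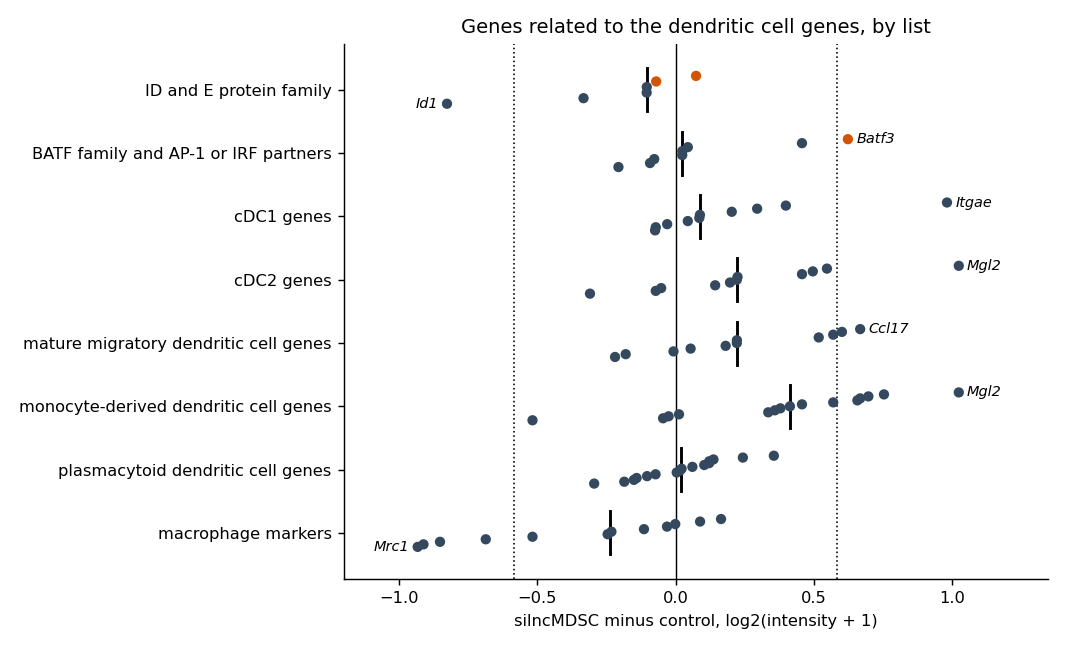
Each point is 1 gene above the floor (x axis, silncMDSC minus control in log2(intensity + 1), 1 array each) in 8 gene lists, with members of the described set in orange, the list's median as a black bar and dotted lines at 1.5-fold. Only the farthest gene at each end of a list is named, where it passes 1.5-fold. These are Ccl17, Mgl2, Itgae and Batf3 beyond the upper line and Id1 and Mrc1 beyond the lower. Other, unnamed points also lie beyond the lines, and the plasmacytoid list stays between both.

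The markers that define dendritic cells were only in part measurable, which bears on the name of the set. Siglech, Xcr1 and Tlr3 were below the floor on both arrays, Flt3, Cd209a, Zbtb46 and Batf3 were dim, and Id2 is used by many cell types. Most genes listed for monocyte-derived dendritic cells passed the floor, but such genes are not used by those cells alone. Of 16 of these, 15 passed the floor with a median of 0.41, 12 of them higher and 3 lower. Among them 5 were up by 1.5-fold or more (0.948% of all genes above the floor) and 0 down (1.42%). Of these 5, Mgl2 is also in the cDC2 list and Ccl17 in the mature list. Irf4 is shared with the cDC2 list and the list of BATF partners, so these lists are not independent. Itgax, the integrin CD11c, had 651 with silncMDSC and 412 with control (0.66), H2-Eb1, a class II chain, 3628 with silncMDSC and 2150 with control (0.75), and the class II activator Ciita 159 with silncMDSC and 97.6 with control (0.70, but down to 0.09 over its 3 probe sets above the floor). The class II chains H2-Aa (0.41, up to 0.79 over its 4 probe sets) and H2-Ab1 (0.36, up to 0.87 over its 3) are not among the 5. Each passed 1.5-fold by at least 1 other probe set. The Fc receptor Fcgr1, which the macrophage list also holds, was lower, with 898 with silncMDSC and 1287 with control (-0.52). Csf2rb (-0.03), Cd1d1 (-0.05) and Mmp12 (0.01) of this list were nearly level. Cd209a, which this list leaves out, was at -0.11. Which cells gave these values was not tested.

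Among markers of other cells, those of macrophages lay mostly below control. Of 15 macrophage markers, 12 passed the floor, of which 2 were higher and 10 lower, with a median of -0.24. Adgre1 and C1qa, among the 10, turned above 0 after loess. Lower by 1.5-fold or more were 4 (1.42% of all genes above the floor), and 0 were higher by as much (0.948%). All 14 with a probe set summed to 16988 with silncMDSC and 19767 with control, including Cd163 and Timd4, below the floor on both. The 4 were Mrc1 (-0.93), Msr1 (-0.91, up to -0.40 over its 4 probe sets), Maf (-0.85, up to -0.41 over its 5) and Mertk (-0.69), whereas Adgre1, a usual surface marker of macrophages, was at -0.001. Of 12 neutrophil markers, 10 were measured and above the floor, with 1 of them higher, 9 lower (S100a8 and S100a9 among them, which turned above 0 after loess) and 0 by 1.5-fold, and summed intensities of 53023 with silncMDSC and 55607 with control. The 1 higher was Cxcr2, with 1053 with silncMDSC and 779 with control (0.44), the farthest of the 10 from control. Mpo was lowest at -0.27.

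Ccr7, Id2, Flt3 and Tcf4 are also used by lymphoid cells and progenitors. Of 9 T cell markers, 6 were above the floor, 4 of them higher, 2 lower and 0 by 1.5-fold, with a median of 0.04 and Cd3g below the floor on both. Cd3d passed the floor on the silncMDSC array only (82.6, and 72.3 with control). The 7 with a probe set, Cd3g included, summed to 1557 with silncMDSC and 1710 with control. Il7r, the interleukin-7 receptor, had 749 with silncMDSC and 932 with control, a fall larger than that whole gap. Of 11 B cell markers, 7 were above the floor, 3 of them higher, 4 lower and 0 by 1.5-fold, with a median of -0.04. Pax5, Vpreb1 and Vpreb3 were below the floor on both. All 10 with a probe set summed to 1269 with silncMDSC and 1247 with control. Of 10 NK and innate lymphoid markers, 5 were above the floor, 3 of them higher and 2 lower, with a median of 0.002. Among these 5, 1 was at least 1.5-fold higher, against 0.948% of all genes above the floor. It was Klrd1, with 528 with silncMDSC and 281 with control (0.91). The 8 with a probe set summed to 1173 with silncMDSC and 896 with control, including Ncr1, Prf1 and Il2rb, below the floor on both. Klrd1 alone gave most of the gap between these sums. Of 10 progenitor markers, 9 were above the floor and 1 was lower by 1.5-fold or more, against 1.42% of all genes above the floor. It was Sox4 (-0.64, up to -0.19 over its 3 probe sets). Hlf passed the floor on the control array only (83.5, and 67.4 with silncMDSC). All 10 summed to 3926 with silncMDSC and 4038 with control, including Mecom, below the floor on both. No marker of these lists was at the lowest value of 1 that the deposited table holds, and their part in the members' values was not tested.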

How the data were processed

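Total RNA of 2 cultures was read on 2 arrays, 1 per siRNA. The authors deposited probe set intensities on a linear scale, and the submitters' processing notes name RMA, with no version given in the sources used here. The step that put them on a linear scale, with a lowest value of 1, is not given either. Background correction was left as deposited. Of 45037 probe sets beside 64 controls, 34945 had 1 symbol in the platform annotation, 932 several and 9160 none. The probe set with the highest mean stood for its gene (pandas 2.3.3), and the difference was log2(intensity + 1), silncMDSC minus control. Folds are on that scale. The paper's methods name limma, which gives no p with 1 array per group, so no test was run, and the number of arrays limits the precision. The calculation was tested on simulated data with less spread than these arrays and planted differences well past 1.5-fold. Calls close to 1.5-fold were therefore not tested by it. Named genes are all members and, per list, those 1.5-fold apart and up to 4 farthest from control. Others named to describe a list, such as Irf8 or Cd40, were chosen after their values were seen. The members and lists were chosen with earlier results of these data known. Alternatives changed scaling, pseudocount, floor, probe set choice and threshold.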

Additional observations from a re-analysis of the deposited data

How the results depend on the processing

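The number of members at least 1.5-fold higher was 2 as reported and 1 with a pseudocount of 16 (Ccr7) or with the floor at the 75th percentile (Ccr7, with 3 members left above that floor), and 0 at a threshold of 2-fold. Under 7 of its 10 alternatives it stayed at 2, Batf3 and Ccr7 each time, and 0 members were at least 1.5-fold lower under all 10. The median of the members ran from 0.07 to 0.14 over its settings and was 0.11 without Ccr7, the member farthest from it. Over their settings Ccr7 ran from 0.62 to 0.67, Batf3 from 0.57 to 0.63, Flt3 from 0.30 to 0.34, Zbtb46 from 0.10 to 0.14, Tcf4 from 0.07 to 0.11, Cd209a from -0.12 to -0.09 and Siglech from -0.19 to -0.14. Id2 ran from -0.08 to 0.01, and was above 0 only with the mean of its probe sets. No sign of a member's probe set turned with centring, loess or quantile normalization, whereas Adgre1, C1qa, Csf2ra, Gata3, Lag3, S100a8 and S100a9 turned with at least 1 of them or came to 0. Under loess or quantile normalization 3 mature and 6 monocyte-derived genes were 1.5-fold up. No paired analysis was possible because each group held 1 array. The dim intensities of Flt3, Cd209a, Zbtb46, Batf3 and Siglech limit what could be seen, and without replicates no difference has an error.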

Other observations

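Some of the listed genes were read differently by their own probe sets, and these would be worth a second look with replicates. Epcam, an adhesion protein of Langerhans cells and some cDC2, was at -0.07 on the probe set read for the gene and at 0.87 by its second probe set. Ccr9, the gut-homing receptor of plasmacytoid cells, was at 0.10 on the one read for the gene and at -0.93 by its second. Cd80, a co-stimulatory ligand, ranged from -0.43 to 0.05 over 3 probe sets, and Rora, a nuclear receptor of innate lymphoid cells, from 0.13 to 0.71 over 4. Over the 4845 genes with 2 or more probe sets above the floor, the median span was 0.14 and the 90th percentile 0.37. These genes were chosen after their values were seen, and the cause of the spread was not tested.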
